A study of Mus musculus with 8 samples.

Results

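The erythroid, hemoglobin and heme genes examined here are Hba-a1, Hba-a2, Hbb-bs, Hbb-bt, Alas2, Alas1, Klf1, Gata1, Car2 and Tfrc, which were picked by name from a count table of mouse leukemia cells. All 10 names were found among the 12823 rows of the table. The cells were bone marrow progenitors of the mouse that had been transduced with MLL-AF9, a fusion oncogene that drives acute myeloid leukemia (AML), together with a GFP reporter, and all 8 libraries carry both. In the 4 new AML libraries, GFP+ cells came from the newly generated leukemia of sublethally irradiated recipients. In the 4 aggressive AML libraries, GFP+ cells came from leukemia that had been passed through 5 serial transplantations in non-irradiated recipients. The study describes the aggressive cells as derived from the newly generated ones, and its mice were 8 to 12 weeks old. The labels number the libraries of each group as biological replicates without saying whether each came from its own mouse, so that the p-values measure the spread between these samples.

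In the adult mouse, hemoglobin is built from alpha chains, encoded by Hba-a1 and Hba-a2, and beta chains, encoded by Hbb-bs and Hbb-bt, each of which binds a heme group. Heme synthesis starts with 5-aminolevulinate synthase, for which Alas2 encodes the erythroid form and Alas1 the form used by other cells. Erythroid progenitors turn these genes on under the transcription factors GATA1 and KLF1, import iron through the transferrin receptor (Tfrc), and accumulate carbonic anhydrase 2 (Car2), which interconverts carbon dioxide and bicarbonate. Alas1 and Tfrc are also used by dividing cells outside the erythroid lineage, and Car2 is also known from osteoclasts.

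Upstream sequences are shown for 5 of the genes because they carry, or lack, the letters that GATA and Kruppel-like factors are known to bind, and because the alpha and beta copies differ in how alike they are. Each run is the 250 bases before the annotated start of the gene in the RefSeq annotation of GRCm38.p6, read 5′ to 3′ on the strand of the gene. Capitals mark a GATA motif, spelled AGATAA or the same with T as its first letter, and the motif CACCC. Both strands were searched, and a match on the opposite strand appears as its reverse complement. No 2 matches in these windows share a base.
Hba-a1, chr11:32283422-32283671, + strand: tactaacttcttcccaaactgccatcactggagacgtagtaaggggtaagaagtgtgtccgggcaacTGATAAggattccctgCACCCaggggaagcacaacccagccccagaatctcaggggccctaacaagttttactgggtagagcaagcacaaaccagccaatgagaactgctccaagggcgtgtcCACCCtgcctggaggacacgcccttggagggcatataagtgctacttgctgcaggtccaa
Hbb-bs, chr7:103827929-103828178, - strand: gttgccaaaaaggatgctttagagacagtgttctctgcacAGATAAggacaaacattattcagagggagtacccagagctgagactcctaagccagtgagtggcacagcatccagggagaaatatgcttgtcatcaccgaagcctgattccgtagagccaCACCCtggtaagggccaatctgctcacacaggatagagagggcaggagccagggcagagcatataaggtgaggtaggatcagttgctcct
Hbb-bt, chr7:103813924-103814173, - strand: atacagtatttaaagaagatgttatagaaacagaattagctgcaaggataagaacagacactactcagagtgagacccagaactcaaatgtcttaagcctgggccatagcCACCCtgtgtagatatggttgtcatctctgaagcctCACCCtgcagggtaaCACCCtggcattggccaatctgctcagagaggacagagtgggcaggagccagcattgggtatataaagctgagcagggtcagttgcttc
Alas2, chrX:150547167-150547416, + strand: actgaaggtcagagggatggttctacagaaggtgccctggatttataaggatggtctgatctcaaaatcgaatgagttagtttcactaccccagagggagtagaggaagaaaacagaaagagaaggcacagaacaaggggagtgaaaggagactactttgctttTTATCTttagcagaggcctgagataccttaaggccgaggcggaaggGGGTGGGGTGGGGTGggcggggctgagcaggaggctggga
Klf1, chr8:84901732-84901981, + strand: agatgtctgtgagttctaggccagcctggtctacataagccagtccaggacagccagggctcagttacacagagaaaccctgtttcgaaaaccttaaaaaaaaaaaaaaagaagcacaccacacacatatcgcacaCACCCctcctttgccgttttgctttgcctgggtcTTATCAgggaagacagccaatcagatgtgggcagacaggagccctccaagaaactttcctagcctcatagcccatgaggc

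Of 32817 annotated windows of the same length, 16.6% held the GATA motif, 52.0% held CACCC and 7.1% held both. Hba-a1, Hbb-bs, Alas2 and Klf1 held both, as did Hba-a2, whose window matched that of Hba-a1 at all 247 aligned bases. The Hbb-bt window held CACCC at 3 places and no match to the GATA motif. No such match was found in the windows of Gata1, Alas1 or Tfrc either, although each of these windows held CACCC. The Gata1 window (chrX:7967911-7968160, - strand) lies within the annotated span of the gene (chrX:7959260-7976663). The bases upstream of that whole span were therefore not searched. A match is only a run of letters, and none of these windows was assayed for binding. A window was found for 9 of the 10 genes, and Car2 (chr3:14886269-14900770) was the gene without an entry.

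The libraries held between 7805544 and 9697777 counts, and the level of a gene is given as CPM, its counts scaled to the size of the library, where 1 count was worth 0.103 to 0.130 CPM. Library sizes were adjusted for composition with TMM factors, and folds are those of aggressive AML over new AML. The quasi-likelihood test of edgeR with Benjamini-Hochberg adjustment called 2296 of 12494 tested genes at an adjusted p under 0.05 (18.4%), and 10.2% of tested genes were called lower in aggressive AML. The 4 Y-linked genes examined (Ddx3y, Eif2s3y, Kdm5d and Uty) summed to 2315 to 2574 counts in every new AML library and to 0 in every aggressive AML library. The study gives the mice of this experiment as male. The passages, recipient irradiation, any difference in the cells the groups started from and any unlabelled batch cannot be told apart here.

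The globins were present at a trace level in all 8 libraries, and no globin separated the groups. The 4 genes together took 0.00227% to 0.00915% of the counts in new AML and 0.000781% to 0.00479% in aggressive AML. The summed level in new AML replicates 1 to 4 was 61.1, 22.7, 86.4 and 90.3 CPM. In aggressive AML replicates 1 to 4 it was 48.6, 7.77, 33.8 and 32.5 CPM. New AML replicate 2 lay below 3 of the 4 aggressive libraries, and the replicate numbered 2 was the lowest of its group on both sides. The exact 95% binomial interval of its share of counts was 0.00196% to 0.00261% in new AML replicate 2 and 0.000604% to 0.000994% in aggressive AML replicate 2, and the intervals and floors given here cover counting error only.

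**Figure D1:**
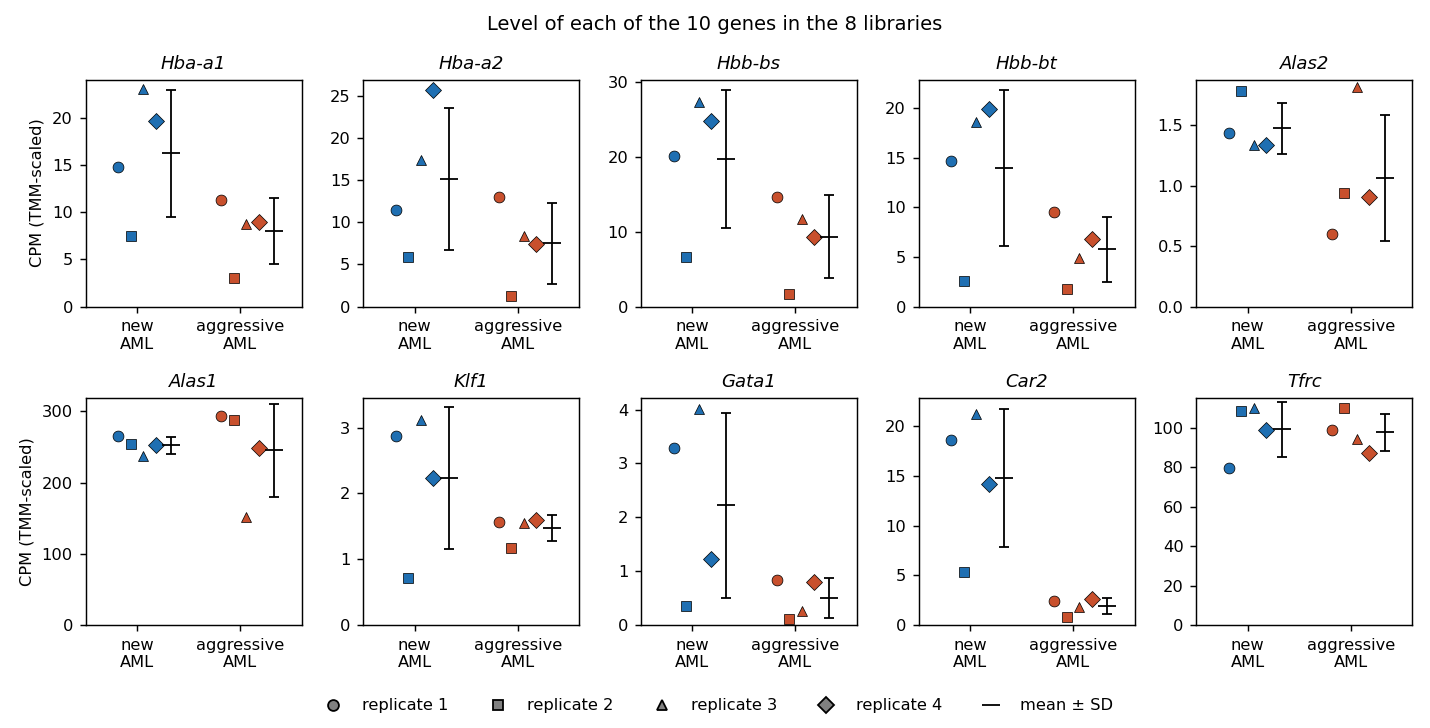
Level of each of the 10 genes in CPM (TMM-scaled, linear axes from 0) in the 4 new AML libraries (blue) and the 4 aggressive AML libraries (orange), with the replicate number as symbol and the mean ± SD (n = 4) beside them. Car2 is the gene whose groups do not overlap, and replicate 2 is the lowest new AML library for the 4 globins, Klf1, Gata1 and Car2.

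Hba-a1 (chr11:32283672-32284486) had 14.8, 7.49, 23.1 and 19.7 CPM in new AML replicates 1 to 4. In aggressive AML it had 11.3, 3.06, 8.81 and 8.99 CPM. The means were 16.3 ± 6.78 and 8.05 ± 3.51 CPM (SD, n = 4 each), with log2 fold change -1.02 (SE 0.338, edgeR adjusted p = 0.0480). It was the only globin past the threshold, the groups overlapped through new AML replicate 2, and the call was lost in 11 of 18 alternatives, DESeq2 among them (adjusted p = 0.136). Among these 11 were the fits without new AML replicate 1, 3 or 4 and without aggressive AML replicate 2, 3 or 4. Log2 fold changes over all 8 fits that left out 1 library ran from -1.26 to -0.74.

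Hba-a2 (chr11:32296492-32297310), the other alpha gene, had 11.5, 5.94, 17.4 and 25.7 CPM in new AML and 13.0, 1.30, 8.42 and 7.40 CPM in aggressive AML. Its log2 fold change was -1.01 (SE 0.459, edgeR adjusted p = 0.140). Hba-a1 and Hba-a2 transcripts were identical at 537 of 538 aligned bases, so counting could have moved reads between the copies, and their separate values are uncertain. The sum of both had a log2 fold change of -1.02 (SE 0.381, edgeR adjusted p = 0.0759).

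Hbb-bs (chr7:103826523-103827928) was the most abundant globin per length, at 25.7 CPM per kb of exon in new AML and 12.2 in aggressive AML. Its values were 20.1, 6.66, 27.3 and 24.9 CPM in new AML and 14.7, 1.65, 11.7 and 9.33 CPM in aggressive AML. The log2 fold change was -1.09 (SE 0.440, edgeR adjusted p = 0.0990). Without new AML replicate 2 it was -1.37 and past the threshold (edgeR adjusted p = 0.0322).

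Hbb-bt (chr7:103812524-103813923) had 14.7, 2.62, 18.6 and 19.9 CPM in new AML and 9.52, 1.77, 4.92 and 6.83 CPM in aggressive AML. Its log2 fold change was -1.28 (SE 0.476, edgeR adjusted p = 0.0738), and -1.62 without new AML replicate 2 (edgeR adjusted p = 0.0062). In both beta genes the overlap was that of new AML replicate 2. The beta transcripts were identical at 570 of 607 aligned bases, with an exact run of 430 bases, and their summed log2 fold change was -1.16 (SE 0.440, edgeR adjusted p = 0.0787). Among all globins, Hbb-bs, Hbb-bt and both alpha genes lay within 19.9 to 25.7 CPM per kb in new AML and 8.19 to 12.2 in aggressive AML, and the SDs over libraries exceed the gaps between genes.

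The list of adult and embryonic globins held 12 names, of which these 4 were in the table. All 4 had a log2 fold change below 0, with a median of -1.05 against 0.00 for all tested genes, and 1 was called lower, beside 10.2% of tested genes. With the replicate number of the labels as a term, all 4 were called. Over all genes, not every library was most like the one of its own number in its deviations from the group mean. The number was therefore not taken as a pairing, although 4 libraries per group cannot exclude one. The fit with that term is described with the other settings.

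Alpha and beta globin RNA counts, not scaled by exon length, were in near balance in most libraries. How reads shared by near-identical copies were counted was not stated, so the alpha shares are uncertain too. Alpha counts were 50.1% to 56.1% of globin counts in aggressive AML and 43.0% to 59.2% in new AML. New AML replicate 1 lay at 43.0% (exact binomial 95% interval 39.0% to 47.1%) and new AML replicate 2 at 59.2% (51.8% to 66.2%), so the spread within new AML was larger than counting error, while the intervals of the aggressive libraries overlapped.

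**Figure D2:**
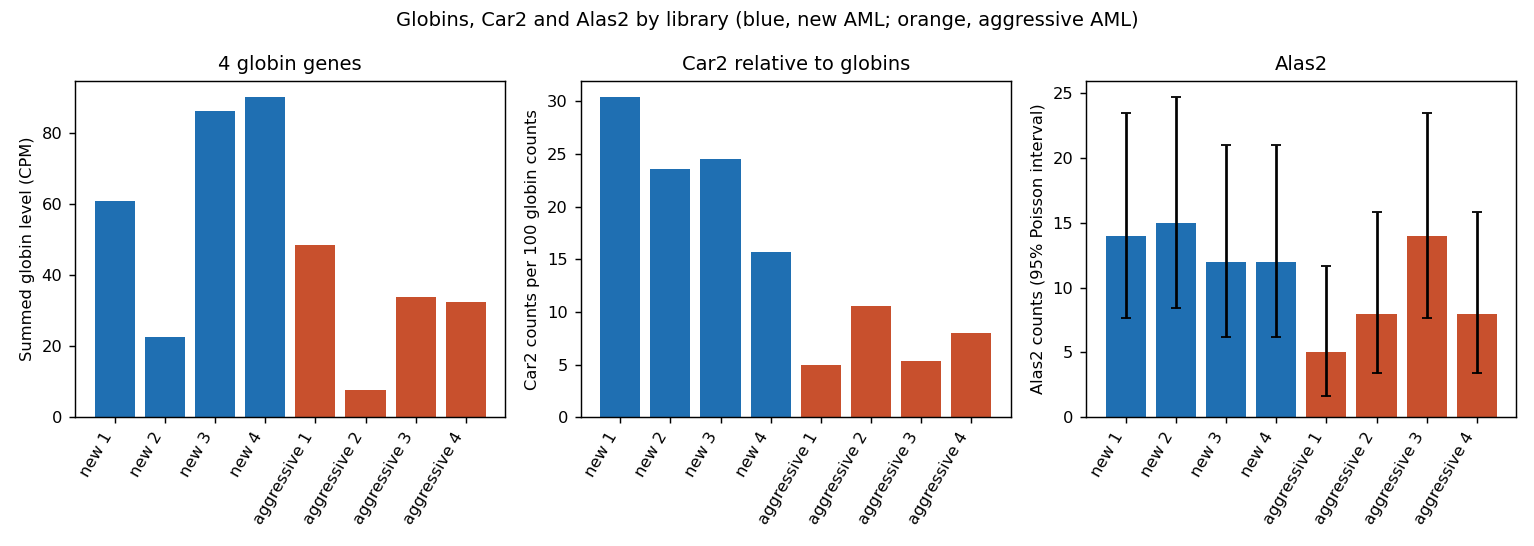
Bars for each library, new AML in blue and aggressive AML in orange: the summed level of the 4 globins in CPM (left), Car2 counts per 100 globin counts (middle) and Alas2 counts with exact 95% Poisson intervals (right). Globins are lowest in both libraries of number 2, Car2 relative to globins runs from 15.7 to 30.4 in new AML and from 4.96 to 10.6 in aggressive AML, and Alas2 stays between 5 and 15 counts throughout.

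The 2 aminolevulinate synthases behaved differently in level. Alas1 (chr9:106233455-106247954) had 266.0, 254.5, 237.1 and 253.2 CPM in new AML and 293.1, 287.5, 152.0 and 249.0 CPM in aggressive AML. Aggressive AML replicate 3 lay below the other 7 libraries, and the log2 fold change was -0.04 (SE 0.148, edgeR adjusted p = 0.869), turning to 0.13 without that library. Alas2 (chrX:150547417-150570622) had 14, 15, 12 and 12 counts in new AML and 5, 8, 14 and 8 counts in aggressive AML. Its log2 fold change of -0.47 (SE 0.390, edgeR adjusted p = 0.430) rests on few counts, and a change of that size was not detectable at this depth. Per kb of exon, Alas1 stood at 40.9 CPM in new AML and Alas2 at 0.613. Alas2 overlaps Apex2 and Mir3620 in the annotation, and whether reads were counted by strand was not stated, so its few counts are uncertain. Alas2 also did not follow the globins: it was 1.78 CPM in new AML replicate 2, where globins were lowest in that group, and 7.85 counts per 100 globin counts there against 1.48 to 2.35 in the other new AML libraries.

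Of the 9 enzymes of heme synthesis, all were tested, 1 was called higher and 1 lower, beside 18.4% of all tested genes called in either direction, and the median log2 fold change was -0.04. Fech, which encodes ferrochelatase, the enzyme that inserts iron into the porphyrin ring, rose from 38.1 ± 4.27 to 54.5 ± 2.98 CPM (SD, n = 4 each). Its log2 fold change was 0.52 (SE 0.102, edgeR adjusted p = 0.00255), the groups did not overlap, and the call held in 19 of 19 alternatives. Uros, which encodes uroporphyrinogen III synthase, fell from 22.4 ± 3.03 to 15.8 ± 2.84 CPM, with log2 fold change -0.50 (SE 0.152, edgeR adjusted p = 0.0321). That call was lost without any 1 of new AML replicates 1, 3 and 4 or of aggressive AML replicates 2 and 3 (log2 fold changes from -0.58 to -0.38 over the 8 fits).

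Transport and breakdown of heme showed as little shift. Of 19 listed genes, 17 were in the table, 1 was called higher and 1 lower, again beside 18.4% of all tested genes, and the median log2 fold change was -0.03. Hmox1, which encodes the inducible heme oxygenase, fell from 18.8 ± 2.10 to 13.3 ± 2.77 CPM (log2 fold change -0.50, SE 0.159, edgeR adjusted p = 0.0410). It lost the call without any 1 of new AML replicates 2 and 4 and aggressive AML replicates 1, 2 and 4. Without new AML replicate 3 it lay at the threshold (edgeR adjusted p = 0.05 after rounding). Slc48a1, which encodes a heme transporter of endolysosomes, rose from 93.9 ± 7.63 to 116.2 ± 5.54 CPM (log2 fold change 0.31, SE 0.0809, edgeR adjusted p = 0.0155), and missed the threshold without new AML replicate 2 (edgeR adjusted p = 0.0568).

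Tfrc (chr16:32608896-32632794), the receptor that takes up transferrin-bound iron, had 79.3, 108.5, 109.7 and 99.1 CPM in new AML and 98.9, 110.0, 94.3 and 87.4 CPM in aggressive AML. The groups overlapped over most of their range, and the log2 fold change was -0.02 (SE 0.106, edgeR adjusted p = 0.910), with a sign that changed when single libraries were left out. Of the 16 genes of iron uptake, storage and sensing, 0 were called by edgeR or limma, beside 18.4% of all tested genes called by edgeR. DESeq2 called 1 of the 16, beside 2538 of all tested genes. With edgeR, 4 of the 16 had an unadjusted p under 0.05, and the share of all tested genes under that threshold is not given here. The median log2 fold change of the 16 was -0.09. The ferritin chains Fth1 and Ftl1 had log2 fold changes of -0.17 (SE 0.0867, edgeR adjusted p = 0.186) and 0.07 (SE 0.0846, edgeR adjusted p = 0.590).

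Klf1 (chr8:84901982-84905291), the erythroid Kruppel-like factor, had 28, 6, 28 and 20 counts in new AML and 13, 10, 12 and 14 counts in aggressive AML. New AML replicate 2 was the lowest of all 8 libraries and the other new AML libraries were the highest, so the groups overlapped. The means were 2.23 ± 1.08 and 1.47 ± 0.197 CPM (SD, n = 4 each), with a log2 fold change of -0.61 (SE 0.396, edgeR adjusted p = 0.308).

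Gata1 (chrX:7959260-7976663), the GATA factor of erythroid, megakaryocyte, mast cell and eosinophil lineages, had 32, 3, 36 and 11 counts in new AML and 7, 1, 2 and 7 counts in aggressive AML. It reached 1 CPM in 3 new AML libraries and in 0 aggressive libraries, and so was left out of the main fit, which required 1 CPM in at least 4 libraries. Such a gene can enter the table only through new AML, since no row of the table has fewer than 3 libraries at 1 CPM. In a fit without that filter, where 18.4% of 12823 rows were called, its log2 fold change was -2.10 (SE 0.667, edgeR adjusted p = 0.0387). The call was lost without any 1 of new AML replicates 1 and 3 and aggressive AML replicates 2 and 3 (edgeR adjusted p = 0.108, 0.113, 0.0987 and 0.0775). New AML replicate 2 lay among the aggressive libraries, and Gata1 overlaps Gm39488 and Gm52419 in the annotation, which leaves its counts uncertain as counting by strand was not stated.

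The list of erythroid transcription factors and cofactors held 13 genes, all in the table and 11 of them tested. Of these 11, 2 were called lower (10.2% of all tested genes were) and 0 higher, with a median log2 fold change of -0.12. In the fit without a filter, 4 of the 13 were called lower and 0 higher, beside 10.2% of all 12823 rows called lower. Without new AML replicate 1, that count was 2. Because genes low in aggressive AML pass the filter only through new AML, these counts are a description, and Bcl11a is no longer tested once a new AML library is left out. Bcl11a, which represses embryonic and fetal globin genes and is also needed in B cells, fell from 6.26 ± 1.33 to 0.331 ± 0.178 CPM (log2 fold change -4.19, SE 0.379, edgeR adjusted p = 2.96e-06). Zfpm1, which encodes the GATA1 cofactor FOG1, fell from 9.12 ± 1.88 to 5.30 ± 0.608 CPM (log2 fold change -0.78, SE 0.200, edgeR adjusted p = 0.0133). Zfpm1 missed the threshold without new AML replicate 1 (edgeR adjusted p = 0.0562). Tal1, a helix-loop-helix factor of blood progenitors, was not tested in the main fit and had 34, 8, 33 and 26 counts in new AML and 1, 1, 1 and 4 counts in aggressive AML. Without a filter its log2 fold change was -3.63 (SE 0.579, edgeR adjusted p = 0.000504). Tal1 reached 1 CPM in no aggressive library, so it could enter the table only through new AML. Gata2, the GATA factor of earlier progenitors, had 48.0 ± 7.25 and 50.9 ± 4.71 CPM (log2 fold change 0.08, SE 0.117, edgeR adjusted p = 0.664).

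Car2 was the 1 gene of the 10 that separated the groups. It had 181, 45, 190 and 127 counts in new AML and 20, 7, 14 and 23 counts in aggressive AML. In CPM these were 18.6, 5.35, 21.2 and 14.2 against 2.41, 0.825, 1.81 and 2.62, so the lowest new AML library, again replicate 2, lay above every aggressive library. Car2 fell from 14.8 ± 6.95 to 1.92 ± 0.803 CPM (SD, n = 4 each), with log2 fold change -2.94 (SE 0.395, edgeR adjusted p = 0.000114). The call held in all 18 alternatives that gave a value, with log2 fold changes from -3.22 to -2.34. Groups that did not overlap, with aggressive AML lower, were found in 12.0% of tested genes.

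No other carbonic anhydrase in the table was called lower. Of 16 family names, 5 were in the table, and 4 of these had a log2 fold change below 0. Car2 was called lower and 1 gene was called higher, beside 18.4% of all tested genes called in either direction. The median log2 fold change was -0.27. The gene called higher was Car12, a membrane-bound form, which had 7.86 ± 2.98 CPM in new AML and 15.7 ± 6.20 CPM in aggressive AML (log2 fold change 1.00, SE 0.283, edgeR adjusted p = 0.0235). Its call was lost without any 1 of new AML replicates 1, 2 and 4 and aggressive AML replicate 2, with log2 fold changes from 0.70 to 1.24 over the 8 fits. Car1, which erythroid cells also carry, was not in the table, where every row reached 1 CPM in at least 3 libraries.

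**Figure D3:**
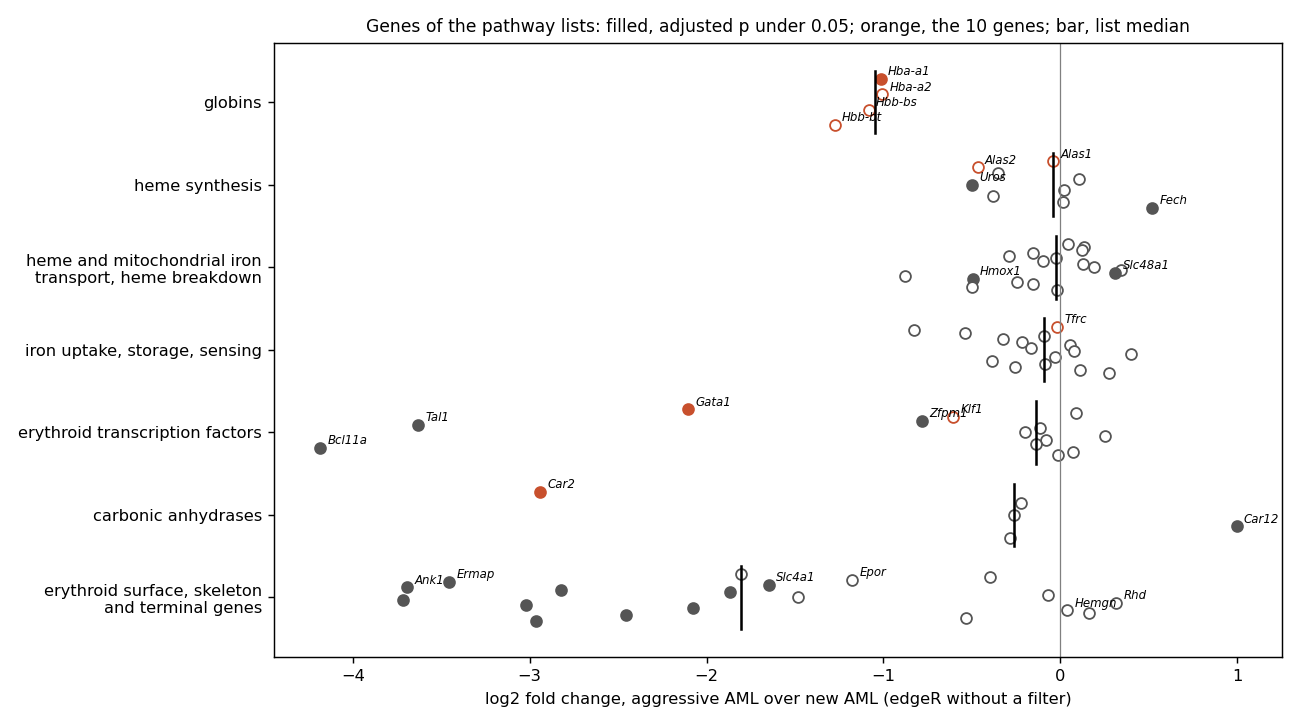
Log2 fold change (aggressive AML over new AML, edgeR without a filter, 12823 rows) of each gene of the 7 pathway lists that was in the table. Filled circles have an adjusted p under 0.05, orange marks the 10 genes, vertical bars are list medians, and labels are given to the 10 genes and to others named in the text. The surface and skeleton list spreads from near 0 to below -3, with a median of -1.81, while the heme and iron lists lie around 0.

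Whether the values follow erythroid cells was examined with genes of the red cell surface and skeleton. Of 23 listed names, 19 were in the table, and 8 of the 19 reached 1 CPM in no aggressive library, so these could enter the table only through new AML and counts over the list are not independent of that. In the fit without a filter, 10 of the 19 were called lower and 0 higher, beside 10.2% of all 12823 rows called lower. The median log2 fold change was -1.81, and the count lay between 8 and 11 when single libraries were left out. In the main fit 7 of 11 tested genes were called lower, beside 10.2% of all tested genes. Without new AML replicate 1, 2, 3 or 4 that count was 2, 4, 3 or 3, as genes then missed the filter, and the median moved from -1.87 to between -1.15 and -0.32. Ank1, which encodes erythroid ankyrin, had 75, 14, 40 and 34 counts in new AML and 4, 0, 0 and 7 counts in aggressive AML (log2 fold change -3.70, SE 0.652, edgeR adjusted p = 0.00114). Ermap, a membrane protein of erythroid cells, had 68, 18, 47 and 41 counts in new AML and 8, 0, 1 and 5 in aggressive AML (log2 fold change -3.46, SE 0.562, edgeR adjusted p = 0.000609). Ank1 and Ermap reached 1 CPM in no aggressive library, so both passed the filter only through new AML. Neither was tested in the main fit once a new AML library was left out. Slc4a1, the band 3 anion exchanger, had 45, 14, 37 and 53 counts and then 19, 1, 10 and 13 (log2 fold change -1.65, SE 0.495, edgeR adjusted p = 0.0301), a call lost without any 1 of new AML replicates 1 and 4 and aggressive AML replicate 2.

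Other defining genes of red cells had few counts. Epor, the erythropoietin receptor, had 17, 9, 13 and 6 counts in new AML and 5, 5, 3 and 5 in aggressive AML. Epor and Hemgn were not tested in the main fit, and the fit without a filter gave adjusted p = 0.0860 and 0.973 with edgeR. Hemgn, an erythroid nuclear protein, had 14, 1, 10 and 4 counts and then 8, 8, 9 and 2. Rhd, named here after its values were seen, had 73, 16, 55 and 45 counts in new AML and 48, 45, 66 and 54 in aggressive AML, and was not called (log2 fold change 0.31, SE 0.314, edgeR adjusted p = 0.523).

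The erythroid marker list as a whole held 21 names, of which 17 were in the table and Ahsp, Car1, Trim58 and Tmod1 were not. Its summed level ranged from 37.1 to 125.3 CPM in new AML and from 17.8 to 65.2 CPM in aggressive AML, and 5 of its 11 tested genes were called lower and 0 higher, with a median log2 fold change of -1.09, beside 10.2% of all tested genes called lower. Of the 17, 6 reached 1 CPM in no aggressive library and so could enter only through new AML. Leaving out new AML replicate 1 or 4 gave a count of 1, leaving out new AML replicate 3 gave 2, and leaving out aggressive AML replicate 2 gave 3. Ermap and Cldn13 were called in the main fit but reached 1 CPM in no aggressive library. Both missed the filter once a new AML library was left out. In aggressive AML replicate 2, 3 markers were at 0 counts, Ermap and Rhag among them, and in aggressive AML replicate 3, Rhag and Cldn13 were at 0, while 0 markers of the list were at 0 in any other library. A count of 0 allows up to 0.353 CPM in aggressive AML replicate 2 and 0.389 CPM in aggressive AML replicate 3 (3 counts). In bulk RNA, fewer erythroid cells and less erythroid RNA per cell cannot be told apart.

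Set against globin counts, the members did not keep 1 ratio across the libraries. Car2 ran to 30.4, 23.6, 24.5 and 15.7 counts per 100 globin counts in new AML replicates 1 to 4 and to 4.96, 10.6, 5.36 and 8.04 in aggressive AML, without overlap. Gata1 had 5.38, 1.57, 4.64 and 1.36 counts per 100 globin counts in new AML and 1.74, 1.52, 0.766 and 2.45 in aggressive AML, with overlap. Klf1 ran from 2.47 to 4.71 in new AML and from 3.23 to 4.90 in 3 aggressive libraries, but aggressive AML replicate 2, with 10 Klf1 and 66 globin counts, stood at 15.2. The 11 other erythroid markers summed to 34.8 to 61.5 counts per 100 globin counts in new AML and 29.8 to 101.5 in aggressive AML, Rhd included. Alas1 and Tfrc were far from any fixed ratio, with 110 to 478 Tfrc counts per 100 globin counts in new AML and 204 to 1415 in aggressive AML. How much of each gene's count came from traces of erythroid cells and how much from the leukemia cells themselves was not tested.

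Over the 8 libraries, the gene most like the summed globins outside the 10 was Slc4a1 (Pearson r of log2(CPM + 1) = 0.95), followed by Mbd2 (0.95), Gatb (0.94), F8a (0.94) and Taf6l (0.92). Car2 was most like Ermap (0.98), Pgm1 (0.98), Ank1 (0.97), Mlycd (0.97) and Trim34a (0.97). The globins resembled each other at r = 0.91 to 0.98, Car2 resembled them at 0.73 to 0.86, and Alas2 at -0.04 to 0.17. These are descriptions over 8 libraries that share the group difference and the low values of both libraries numbered 2.

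Markers of other cell types were summed in the same way, and their part in the values above was not tested. Beside their counts, 18.4% of all tested genes were called by edgeR in either direction and 10.2% were called lower. DESeq2 called 2538 of all tested genes, and the share of all tested genes at an unadjusted p under 0.05 is not given here. Macrophage markers (5 of 12 in the table) summed to 82.9 to 145.6 CPM in new AML and 56.0 to 90.8 CPM in aggressive AML. Of the 4 tested, 1 was called lower by edgeR, while limma called 1 and DESeq2 called 2. Osteoclast markers (2 of 7) summed to 17.4 to 19.6 CPM in new AML and 9.59 to 11.7 CPM in aggressive AML, with 1 of 2 called lower. Mast cell and basophil markers (4 of 9) summed to 89.3 to 128.4 CPM in new AML and 145.9 to 171.2 CPM in aggressive AML. Of the 4, only Mcpt8 was called (27.9 to 77.8 CPM), 2 had a log2 fold change below 0, and the median was 0.10. Megakaryocyte markers (3 of 12) summed to 48.5 to 75.6 CPM and 50.9 to 79.1 CPM, with 0 called by edgeR or limma, 1 by DESeq2 and 2 at an unadjusted p under 0.05. Most of that sum was Itgb3, with means of 55.0 and 60.2 CPM. Itga2b and Gp1ba went opposite ways, with log2 fold changes of -0.74 and 1.37 (edgeR adjusted p = 0.0887 and 0.0554). Eosinophil markers (2 of 9) summed to 14.1 to 21.6 CPM and 17.1 to 22.7 CPM, with 0 called by edgeR, limma or DESeq2 and 0 at an unadjusted p under 0.05. B cell markers (5 of 8) summed to 40.9 to 47.6 CPM and 32.8 to 36.3 CPM, most of it Cd79b, with means of 36.3 and 32.1 CPM. Of the 3 tested, 1 was called lower, Cd22, which passed the filter only through new AML, and 3 of the 5 reached 1 CPM in no aggressive library. T and NK cell markers (3 of 12) summed to 20.6 to 30.0 CPM and 26.3 to 50.4 CPM. Of these 3, 2 were called higher by edgeR, while limma called 1 and DESeq2 called 1.

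**Figure D4:**
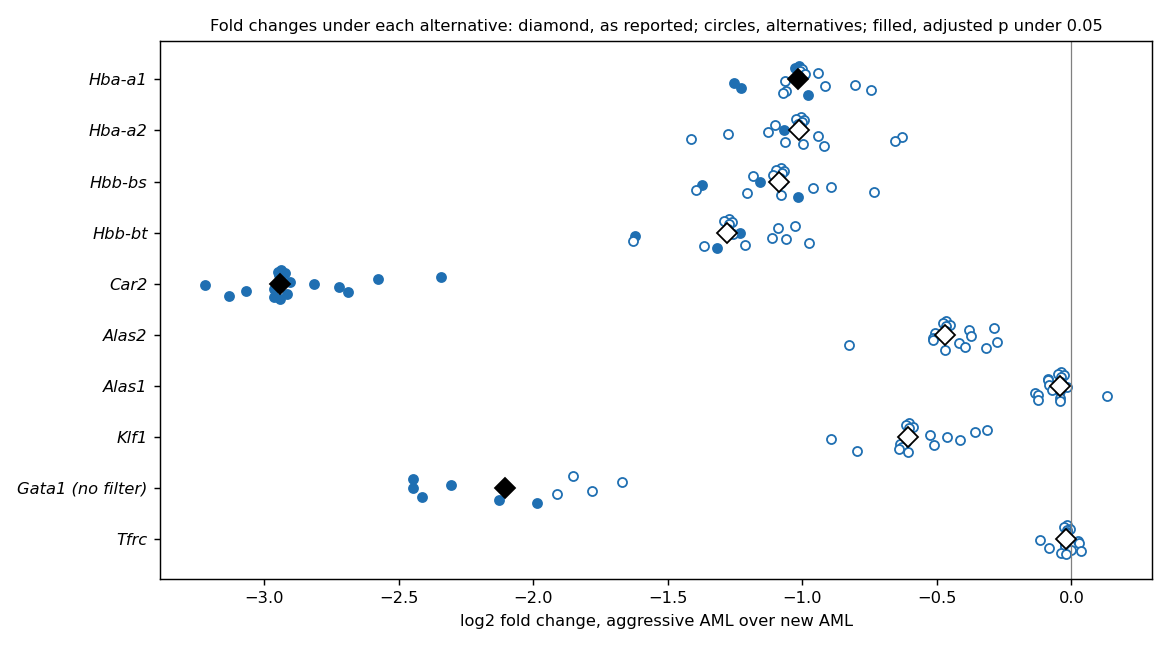
Log2 fold change of each of the 10 genes as reported (diamond) and under each alternative test, scaling, filter, block or left-out library (circles); filled symbols have an adjusted p under 0.05, and Gata1 is shown for fits without a filter. Car2 stays between -3.22 and -2.34 and filled throughout, the globins stay below 0 with few filled circles, and Alas1 and Tfrc scatter around 0.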

How the data were processed

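The authors purified polyadenylated RNA from GFP+ leukemia cells, sequenced it paired-end, aligned to mm10 with HISAT2 and counted reads per gene with Rsubread. Their RNA methods do not state how the GFP+ cells were isolated. The annotation and strand setting are not given in the sources used here. Although its name says CPM, the deposited table holds whole-number counts whose totals differ between libraries, and these were used as raw counts. Every row reached 1 CPM in at least 3 of 8 libraries, 0 rows had no gene name and 1 name was repeated.

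The filter kept genes at 1 CPM or more in 4 or more libraries. They were tested with the quasi-likelihood test of edgeR 4.0.16 (R 4.3.3) on group alone, two-sided, with TMM scaling and Benjamini-Hochberg adjustment over 12494 genes. A result was called at an adjusted p under 0.05, and the SE is the size of the log2 fold change divided by the square root of F. Because counts were deposited, the authors' limma test was an alternative (limma 3.58.1, log2(CPM + 1) or + 0.5). DESeq2 1.42.0, other scalings and filters, a replicate block, each library left out and summed globin copies were the others. The script was tested on simulated data. Likeness is Pearson's r over libraries.

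Within groups, no 2 libraries agreed within sampling noise (chi-square per degree of freedom from 4.10 to 11.2), so each counted as 1 sample. The members and gene lists were chosen with earlier results of these data known. All 10 members were named. From each list the called genes were named where at most 4 were called, otherwise the 2 most extreme in each direction, with defining genes beside them. Some genes that this rule selects are not reported here. Gene spans and upstream sequences came from RefSeq (GRCm38.p6). Transcripts and exon lengths came from GENCODE of the same build, where the exon length is the union of all annotated exons of a gene.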

Additional observations from a re-analysis of the deposited data

Results flagged for a closer look

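Klf1 in aggressive AML replicate 2, at 1.18 CPM (10 counts), lay apart from the other 3 libraries of its group, the nearest of which had 1.55 CPM. The gap was 0.908 of the range of the group, above Dixon's 95% critical value for 4 samples. Of 22 groups of 4 examined in this way (the 10 genes and the summed globins in both groups), 1 was singled out, where chance does so for about 1 in 20. The exact 95% Poisson interval of the 10 counts (4.80 to 18.4) holds the 12, 13 and 14 counts of the other libraries, so the gap is within counting error.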

How the results depend on the processing

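Car2 was called under all 18 alternatives that gave a value, and Alas2, Alas1, Klf1 and Tfrc under none. The call of Hba-a1 was lost with upper quartile scaling (-1.0), DESeq2 (-1.01), limma on log2(CPM + 1) (-0.94) or + 0.5 (-0.99) and a filter of 1 CPM in all 8 libraries (-1.02). Leaving out each library gave -1.26 to -0.74 for Hba-a1, -1.41 to -0.63 for Hba-a2, -1.40 to -0.73 for Hbb-bs, -1.63 to -0.98 for Hbb-bt, -2.45 to -1.67 for Gata1 without a filter, -0.89 to -0.41 for Klf1, -0.83 to -0.28 for Alas2, -0.14 to 0.13 for Alas1 and -0.12 to 0.036 for Tfrc. The sign turned for Alas1 without aggressive AML replicate 3 (0.13) and for Tfrc without new AML replicate 2 (0.02), new AML replicate 3 (0.03) or aggressive AML replicate 4 (0.036). The number of called genes ranged from 1466 (without new AML replicate 2) to 2324 over these fits. With both libraries of number 2 left out, chosen after seeing the data, it was 998, with Hba-a1 (-0.98), Hbb-bs (-1.02) and Hbb-bt (-1.32) called; fewer samples remained in these fits. Same-numbered libraries had deviations from their group means that correlated at 0.0967, -0.0399, -0.0654 and 0.204, and not every library correlated best with its own number, so the number was not taken as a pairing. The replicate block gave 2367 called genes and called Hba-a2 (-1.07), Hbb-bs (-1.16) and Hbb-bt (-1.23). The cause of these moves was not tested. Alas2, Klf1 and Gata1 hold 1 to 36 counts per library, which limits what could be detected.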
